A study of Cucumis sativus with 11 samples.

Results

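The interaction of salt and silicon was measured in cucumber leaves by asking, gene by gene, whether salt changed RNA differently in silicon-fed plants than in plants without added silicon. All 11 of the 11 leaf libraries entered, as the contrast takes in every group: 3 of salt plus silicon, 2 of silicon, 3 of salt and 3 of control. All were seedlings of the cultivar JinYou 1 in nutrient culture. Salt plus silicon plants received 75 mM sodium chloride and 0.3 mM sodium silicate, silicon plants the silicate alone, salt plants the chloride alone, and control plants neither. Leaves were taken on day 3, and each library came from 3 leaves combined. The silicate was a sodium salt, and the labels name no sodium added to the other plants to match it. The contrast was (salt plus silicon minus silicon) minus (salt minus control), on group means of log2(RPKM + 1), where RPKM divides the reads of a gene by its length and by the library total. It was computed for the 17408 of 20165 listed genes that reached 1 RPKM in 2 or more libraries. In RNA from whole leaves, fewer cells of a type and less RNA per cell cannot be told apart.

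Silicon enters roots as silicic acid and moves with the transpiration stream to the leaf, where it is deposited in and around cell walls. Cucumber is known as a dicot that takes up much silicon, and silicon supply is known to ease salt injury in many crops. High salt acts on leaves first through water shortage and later through sodium and chloride that build up in the blade. A contrast of 0 means that the effects of salt and silicon add up on the log2 scale. A negative contrast means that salt moved a gene lower, relative to its own reference, in silicon-fed leaves than in leaves without silicon, and a positive one means the opposite. The files give gene IDs without names or products, and 0 of the 20165 IDs matched the reference gene table, so no function is stated for any gene, leaf markers could not be looked up, and planned lists of gene products could not be used.

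The libraries were uneven in ways that touch every value below. The silicon group had 2 libraries, and the median RPKM of the tested genes ran from 11.3 to 12.2 in salt plus silicon, 12.7 to 13.4 in silicon, 10.53 to 12.8 in salt and 9.14 to 11.9 in control libraries. Absolute depth is unknown, since no counts were among the files used here, and no counting interval could be given. The median contrast over all tested genes was -0.15 as deposited, -0.01 with median-of-ratios size factors and 0.09 with quantile normalization, so values are set beside that of all genes. The labels name each library as a separate biological replicate of combined leaves, and the p-values measure the spread between these libraries.

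The interaction passed the test in 339 genes, 1.95% of those tested (limma, Benjamini-Hochberg adjusted p under 0.05). It was negative in 307 of them, 1.76% of tested genes, and positive in 32, 0.184%. With median-of-ratios size factors 253 were negative and 40 positive, and with quantile normalization 221 were negative and 56 positive. Among the negative calls the contrast ran from -11.47 to -0.99 with a median of -2.71, and among the positive calls from 0.99 to 6.49 with a median of 1.91. The values -11.47 and 6.49 belong to genes listed at 0 in whole groups, for which the fitted size depends on the pseudocount. Among calls without a 0 in any library the contrast reached -7.39 and 2.50. The largest adjusted p among the calls was 0.0499 and the smallest outside them 0.0502, so the border runs through a continuous range. Because the contrast chose these genes, their shapes below are descriptions without a test.

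Read along the salt axis, the negative calls lay far lower with salt in silicon-fed leaves and differed less without silicon. Their median log2 difference was -2.23 between salt plus silicon and silicon and 0.27 between salt and control, beside 0.00 and 0.11 over all tested genes. The sign was opposite in the 2 settings in 188 of the 307 genes (61.2%), which lay above control with salt alone and below silicon with both treatments, against 24.5% of tested genes. A negative contrast goes with this pair of signs by its own arithmetic, as the reverse pair would make it positive. In another 100 genes (32.6%) salt lay below its reference in both settings, against 25.3% of tested genes, and in 4 above it in both. These are signs of group means: 56 of the 307 passed the limma test as higher in salt than in control, and 270 as lower in salt plus silicon than in silicon. The positive calls went the other way, with a median of 0.47 between salt plus silicon and silicon and -1.31 between salt and control. In 23 of these 32 genes salt alone lay below control while salt plus silicon lay above silicon, against 16.2% of tested genes. A positive contrast goes with that reverse pair of signs in the same way. By limma, 24 of the 32 were called lower in salt than in control, and 7 higher in salt plus silicon than in silicon.

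**Figure D1:**
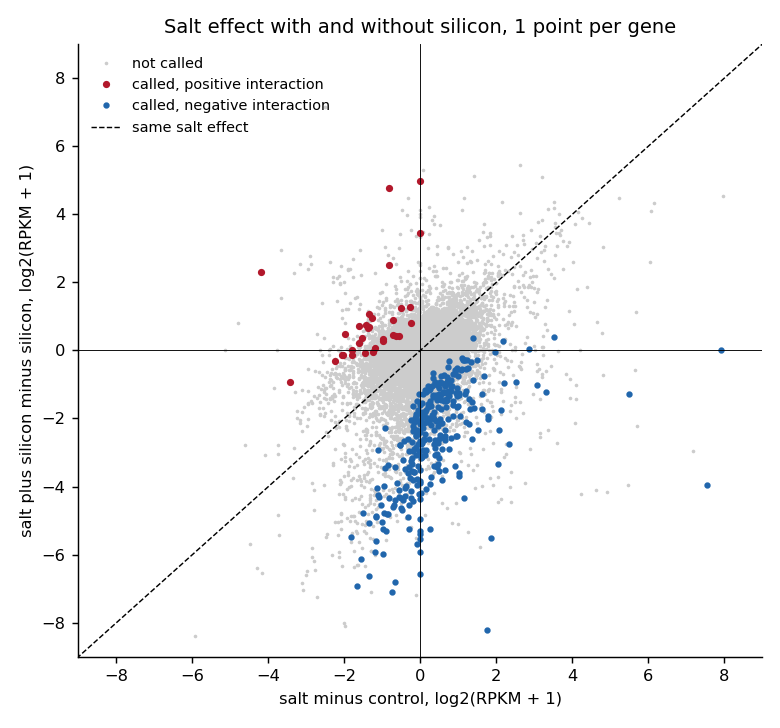
Each point is 1 of 17408 tested genes, with the salt difference in silicon-fed leaves (salt plus silicon minus silicon) on the vertical axis and the salt difference without silicon (salt minus control) on the horizontal axis, both in log2(RPKM + 1). The 307 negative calls lie below the dashed line of equal salt effect and the 32 positive calls above it, and most negative calls sit near 0 on the horizontal axis and well below 0 on the vertical axis.

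Read along the silicon axis, the same contrast is the silicon difference in salted leaves minus the silicon difference in unsalted leaves. For the negative calls the median was -0.20 between salt plus silicon and salt and 2.35 between silicon and control, beside 0.03 and 0.18 over all tested genes. The difference between silicon and control made up a median of 91.7% of the negative contrast. For the positive calls the medians were 0.74 between salt plus silicon and salt and -0.97 between silicon and control, and the silicon and control groups made up a median of 60.5%. Split this way, the negative contrast came mostly from silicon against control. Split along the salt axis, salt against control made up a median of 11.7%, and most lay between salt plus silicon and silicon. The large difference of either split takes in the silicon group, which had 2 libraries. For the positive calls no single difference made up the contrast: split along the salt axis, salt against control made up a median of 66.8%.

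Set beside the average effect of each treatment, the interaction took a share close to that of silicon and below that of salt. The 3 contrasts of the group means split the sum of squares over all tested genes into 26.5% for the interaction, 50.01% for salt averaged over both silicon levels and 23.5% for silicon averaged over both salt levels. The spread between libraries alone would give each of them 12.04%. The interaction was the largest of the 3 in 5046 genes (29.0%). It was called in 339 genes, against 3074 (17.7%; 8.98% higher and 8.68% lower) for salt averaged over silicon levels and 199 (1.14%; 1.11% higher and 0.0287% lower) for silicon averaged over salt levels, by the same limma fit. Of the separate differences, that between salt plus silicon and silicon was called in 1719 genes (9.87%), 2.61% higher and 7.26% lower. That between salt and control was called in 1587 (9.12%), 6.11% higher and 3.0% lower. Salt plus silicon differed from salt in 3 genes (0.0172%), 0.0115% higher and 0.00574% lower. Silicon differed from control in 1629 (9.36%), 8.38% higher and 0.977% lower.

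Each gene was given a shape from its group means. A group was set apart as highest or lowest where the gap to its nearest neighbour was 50% or more of the whole range, groups fell into pairs where the middle gap was that wide, and other genes were called graded. In 247 of the 339 called genes (72.9%) the silicon group stood apart as highest, against 2914 of all tested genes (16.7%). Only 303 of the 339 passed the filter without a silicon library. The others reached 1 RPKM in the 2 silicon libraries alone, so they entered the test only through the group where they were high. Their part in these counts is a description and supports nothing. The 42 graded genes made up 12.4% of the calls, against 23.1% of tested genes. Control stood apart as lowest in 21 called genes (6.19%) and as highest in 10 (2.95%), against 16.4% and 7.03% of tested genes, so both shapes took a smaller share of the calls. Salt and silicon were the high pair in 5 called genes (1.47%), against 1.38% of tested genes, and control and salt plus silicon in 4 (1.18%), against 1.63%. Salt plus silicon stood apart as highest in 4 called genes (1.18%), against 3.03% of tested genes, and silicon as lowest in 3 (0.885%), against 7.38%. Salt stood apart as lowest in 2 (0.59%), against 2.57%, and as highest in 1 (0.295%), against 1.95%. No called gene had salt plus silicon apart as lowest, a shape of 235 tested genes (1.35%). None had salt and salt plus silicon as the high pair (1741 tested genes), control and silicon (925), salt plus silicon and silicon (258) or control and salt (124). In these 4 pair shapes the wide gap cancels out of the contrast.

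**Figure D2:**
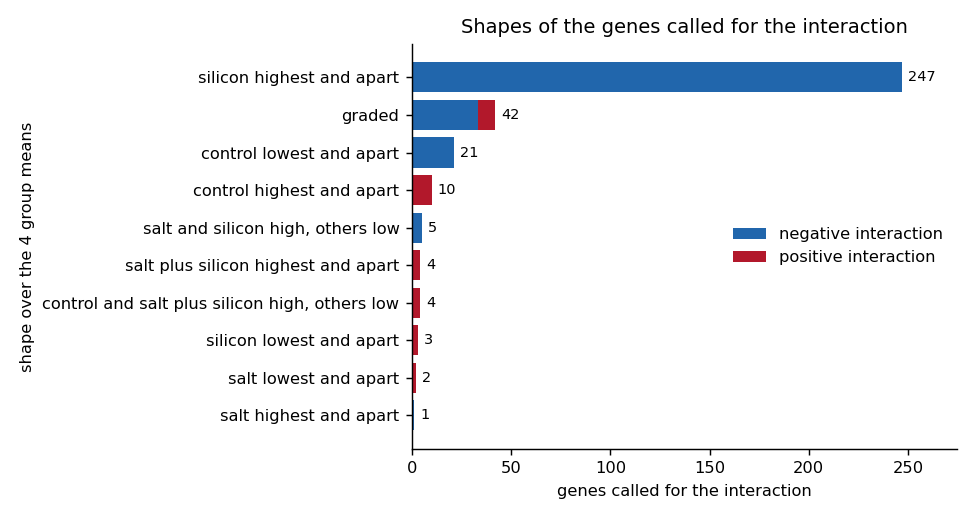
Bars give the number of genes called for the interaction in each shape over the 4 group means, blue for a negative and red for a positive contrast, on an axis that starts at 0. The bar for silicon highest and apart holds 247 of the 339 genes, all negative, while the next bars hold 42, 21 and 10.

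In the 247 genes with silicon highest, the silicon mean stood above the other groups by the rule, but the size of the contrast and the order of the other groups varied. The contrast ran from -9.95, in a gene with a listed 0, to -0.99. All control libraries lay below the other 8 in 22 of the genes (8.91%), near the 8.81% of all tested genes. Their median level was 3.09 RPKM in salt plus silicon, 37.8 in silicon, 4.30 in salt and 3.73 in control, taken over group means. Both silicon libraries lay above each of the other 9 libraries in all 247. Over all 307 negative calls this held for 277 (90.2%), against 13.2% of tested genes. For calls that reached 1 RPKM in the silicon libraries alone it holds by the filter. Silicon 1 was above silicon 2 in 177 of the 247, with a median log2 difference of 0.31, where it was above in 46.1% of all tested genes. Outside silicon, control 1 was the highest library in 111 of the 247 genes (44.9%) and salt 1 in 68 (27.5%), against 17.2% and 12.1% of tested genes. The median of these genes was 6.29 RPKM in control 1, 2.92 in control 2 and 2.03 in control 3. How far control 1 sets these shapes was not tested beyond the fit without it, given with the other fits that leave out a library. In the fit of salt against control, 6 of the 247 were called higher and 5 lower, beside 6.11% and 3.0% of all tested genes. That fit uses libraries of the interaction as well.

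Csa6G486960 had the lowest contrast among called genes without a 0 in any library. It stood at 3.18, 1.10 and 0.619 RPKM in salt plus silicon, 80.6 and 151 in silicon, 29.8, 1.76 and 9.47 in salt, and 6.11, 0.822 and 0.406 in control libraries. The silicon libraries lay above all others, while the salt libraries spread over a wide range that overlapped control. The interaction was -7.39 ± 1.30 (SE, limma adjusted p = 0.0264). It was made of -5.52 ± 0.97 for salt plus silicon against silicon (adjusted p = 0.00732) and 1.87 ± 0.87 for salt against control, which did not pass the limma test (adjusted p = 0.189).

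Csa4G286960 showed the same shape with less spread. Its values were 0.419, 0.507 and 0.966 RPKM in salt plus silicon, 207 and 154 in silicon, 1.47, 1.05 and 1.04 in salt, and 9.75, 1.87 and 0.308 in control libraries. No other library came near the silicon pair, and control 1 was the highest of the remaining 9. The interaction was -6.14 ± 0.91 (SE, limma adjusted p = 0.016), with -6.80 ± 0.68 for salt plus silicon against silicon (adjusted p = 0.000661). For salt against control the difference was -0.66 ± 0.60, which did not pass (limma adjusted p = 0.511).

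Some silicon-high genes were listed at 0 everywhere else. Above 0 in both silicon libraries and at 0 in the other 9 were 15 tested genes, and 13 of them were called. They entered the test only through the silicon libraries, and 9 libraries at 0 add no spread, so their count is a description and supports nothing. In these 13 genes silicon 1 ran from 4.04 to 115 RPKM with a median of 18.0, and silicon 2 from 2.48 to 77.5 with a median of 23.9. In all, 71 called genes were at 0 in at least 1 library and 41 in every library of a group, against 1655 and 615 tested genes. A listed 0 may stand for a failed estimate, and a group listed at 0 throughout adds no spread to the fit. Without the 41 genes 298 calls were left, 271 negative and 27 positive, and the silicon group stood apart, as highest or lowest, in 72.1% of them, against 73.7% of all 339.

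**Figure D3:**
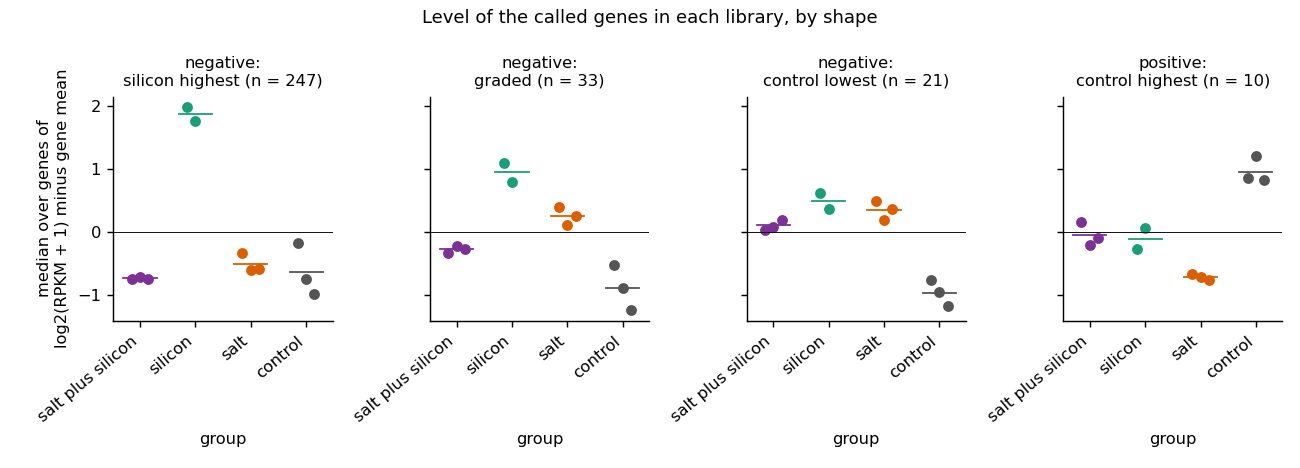
Points are single libraries, horizontal lines group means of the points, and the vertical axis gives the median over genes of log2(RPKM + 1) minus the gene's mean of the group means, for 4 shapes of called genes. In the 247 genes with silicon highest the silicon libraries lie at 1.98 and 1.76 and the others between -0.98 and -0.18, with control 1 the highest of those.

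The 33 graded genes with a negative contrast had a stepwise profile rather than a single high group. Their median level was 7.58 RPKM in salt plus silicon, 26.7 in silicon, 15.8 in salt and 5.76 in control, taken over group means. Silicon was the highest group in 26 and salt in 7, and control was the lowest in 31. Of all 17408 tested genes, silicon was highest in 6343 and salt in 3438, and control was lowest in 7117. Salt alone lay above control in all 33 with a median log2 difference of 1.19, while salt plus silicon lay below silicon in 32 with a median of -1.20. Of all tested genes these signs held for 10099 and 8715, and a negative contrast goes with them by its own arithmetic. By the median levels of these 33 genes each treatment alone went with a higher level, and both together with a level between control and the single treatments.

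Csa1G062380 was the graded gene with the lowest contrast. It had 35.5, 13.3 and 47.2 RPKM in salt plus silicon, 116 and 41.5 in silicon, 349, 102 and 337 in salt, and 2.98, 4.30 and 5.52 in control libraries. Every treated library lay above every control library, and salt plus silicon reached into the range of silicon but not of salt. The interaction was -6.74 ± 0.90 (SE, limma adjusted p = 0.0123). It rose by 5.48 ± 0.60 with salt alone (adjusted p = 0.00223) and by 3.77 ± 0.67 with silicon alone (adjusted p = 0.0117), both by limma. Salt plus silicon minus salt was -2.97 ± 0.60, which did not pass (limma adjusted p = 0.947).

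Csa6G504490 had 6.53, 5.86 and 1.04 RPKM in salt plus silicon, 36.7 and 58.9 in silicon, 39.7, 6.53 and 8.42 in salt, and 6.10, 2.15 and 0.88 in control libraries. Salt 1 reached the silicon range while the other salt libraries were near salt plus silicon. The interaction was -5.36 ± 1.12 (SE, limma adjusted p = 0.0463), the difference of salt against control 2.03 ± 0.75, which did not pass (limma adjusted p = 0.11).

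In 21 called genes control stood apart as lowest, so that each treatment, alone or with the other, went with a raised level and the combined rise was less than the sum of the single ones. Their median level was 12.1 RPKM in salt plus silicon, 18.7 in silicon, 14.2 in salt and 5.28 in control. All control libraries lay below the other 8 in these 21, and in 60 of all 307 negative calls (19.5%), against 8.81% of tested genes. The median log2 difference was 1.42 for silicon against control and 1.19 for salt against control, beside -0.29 for salt plus silicon against salt.

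Csa1G045650 had 11.3, 8.68 and 7.64 RPKM in salt plus silicon, 22.3 and 15.2 in silicon, 32.6, 9.53 and 15.7 in salt, and 5.40, 2.31 and 1.81 in control libraries. The interaction was -3.16 ± 0.65 (SE, limma adjusted p = 0.0446), with 2.21 ± 0.43 for salt and 2.32 ± 0.49 for silicon, each alone against control (adjusted p = 0.0176 and 0.0203). No treated library overlapped control, and salt overlapped both other treated groups, which did not overlap each other.

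Csa4G377740 had 55.8, 42.8 and 81.3 RPKM in salt plus silicon, 66.6 and 28.6 in silicon, 154, 68.3 and 199 in salt, and 8.17, 10.9 and 12.3 in control libraries. Here salt alone had the highest mean and overlapped only salt plus silicon at its low end, and salt plus silicon overlapped silicon. The interaction was -3.11 ± 0.65 (SE, limma adjusted p = 0.0468), with 3.51 ± 0.43 for salt against control (limma adjusted p = 0.00386) and 0.40 ± 0.49 between salt plus silicon and silicon (adjusted p = 0.676).

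In 5 called genes salt and silicon formed the high pair, so that either treatment alone went with a higher level than both together. They and the other shapes of 5 or fewer genes were named after their values were seen. The 5 were Csa1G056920, Csa3G144110, Csa4G129570, Csa5G517870 and Csa4G431930. Csa1G056920 had 2.33, 3.32 and 1.21 RPKM in salt plus silicon, 7.52 and 12.3 in silicon, 21.5, 4.16 and 10.99 in salt, and 1.85, 1.33 and 1.502 in control libraries. The 2 high groups did not overlap the 2 low ones, and the interaction was -3.88 ± 0.72 (SE, limma adjusted p = 0.0313). Csa3G144110 had 12.7, 13.1 and 11.4 RPKM in salt plus silicon, 49.6 and 49.7 in silicon, 42.4, 16.6 and 23.4 in salt, and 20.2, 9.33 and 8.84 in control libraries, with control 1 in the range of salt. Csa5G517870 had 7.10, 10.2 and 7.49 RPKM in salt plus silicon, 19.4 and 16.2 in silicon, 13.3, 10.6 and 15.7 in salt, and 7.19, 5.77 and 8.34 in control libraries. It had the lowest adjusted p of these 5 genes, 0.0239 by limma, with an interaction of -1.84 ± 0.31 (SE). Csa4G431930 was listed at 0 in salt plus silicon and control libraries, at 235 and 0 RPKM in silicon and at 209, 149 and 201 RPKM in salt libraries, so the silicon pair did not match each other. Csa6G116670, the 1 gene with salt apart as highest, was at 267, 328 and 156 RPKM in salt libraries and listed at 0 in the other 8.

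The 32 positive calls were led by control. Control was the highest group in 27 of them and salt plus silicon in 5, while salt was the lowest in 18 and silicon in 11, with 3 genes tied at the bottom. Of all 17408 tested genes, control was highest in 3551 and salt plus silicon in 4076, and salt was lowest in 3617 and silicon in 3972. All control libraries lay above the other 8 in 20 of the 32 (62.5%), against 3.03% of tested genes, and both silicon libraries below the other 9 in 3 (9.38%), against 3.3%. Their median level was 31.0 RPKM in salt plus silicon, 20.6 in silicon, 17.1 in salt and 44.8 in control. Salt alone lay below control in 30 of the 32, silicon alone in 30, and salt plus silicon above salt in all 32. Of all tested genes this held for 7255, 6446 and 9605, and a positive contrast goes with these signs by its own arithmetic.

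In the 10 genes with control apart as highest, the median level was 43.3 RPKM in salt plus silicon, 46.4 in silicon, 28.4 in salt and 95.3 in control. The median log2 difference was -0.03 between salt plus silicon and silicon and -1.80 between salt and control. By the rule that gave this shape, all 10 were lower with salt alone and with silicon alone than in control. Between salt plus silicon and silicon, 5 lay higher and 5 lower.

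Csa1G423000 had 90.2, 73.3 and 110 RPKM in salt plus silicon, 48.4 and 83.6 in silicon, 30.8, 77.6 and 38.9 in salt, and 141, 213 and 205 in control libraries. All control libraries lay above the rest, among which the groups overlapped. The interaction was 2.49 ± 0.52 (SE, limma adjusted p = 0.0484). It fell by 1.99 ± 0.35 with salt alone (adjusted p = 0.0124, limma), while salt plus silicon minus silicon was 0.49 ± 0.39 (adjusted p = 0.497).

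Csa3G149910 had 169, 94.6 and 99.9 RPKM in salt plus silicon, 128 and 162 in silicon, 77.4, 74.9 and 86.5 in salt, and 329, 499 and 336 in control libraries. Its interaction was 1.95 ± 0.37 (SE, limma adjusted p = 0.0354), with -2.25 ± 0.25 for salt against control (adjusted p = 0.00229) and -0.30 ± 0.28 for salt plus silicon against silicon (adjusted p = 0.567). The salt libraries lay within a narrow band below all others.

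Among the 9 graded positive genes, Csa3G646510 had the highest contrast. It had 35.0, 31.3 and 29.6 RPKM in salt plus silicon, 52.6 and 72.6 in silicon, 6.97, 10.8 and 17.0 in salt, and 124, 179 and 94.8 in control libraries. The groups did not overlap at all, and fell in the order control, silicon, salt plus silicon and salt. The interaction was 2.50 ± 0.47 (SE, limma adjusted p = 0.0337), with -3.44 ± 0.31 for salt against control (adjusted p = 0.00152) and -0.93 ± 0.35 for salt plus silicon against silicon (adjusted p = 0.137).

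Csa1G586900 had 4.15, 5.94 and 2.90 RPKM in salt plus silicon, 2.53 and 0.704 in silicon, 3.09, 2.02 and 2.68 in salt, and 6.98, 8.97 and 8.63 in control libraries. Both single treatments gave lower values than control without overlap, and salt plus silicon lay between, overlapping salt alone. The interaction was 2.44 ± 0.46 (SE, limma adjusted p = 0.0344).

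**Figure D4:**
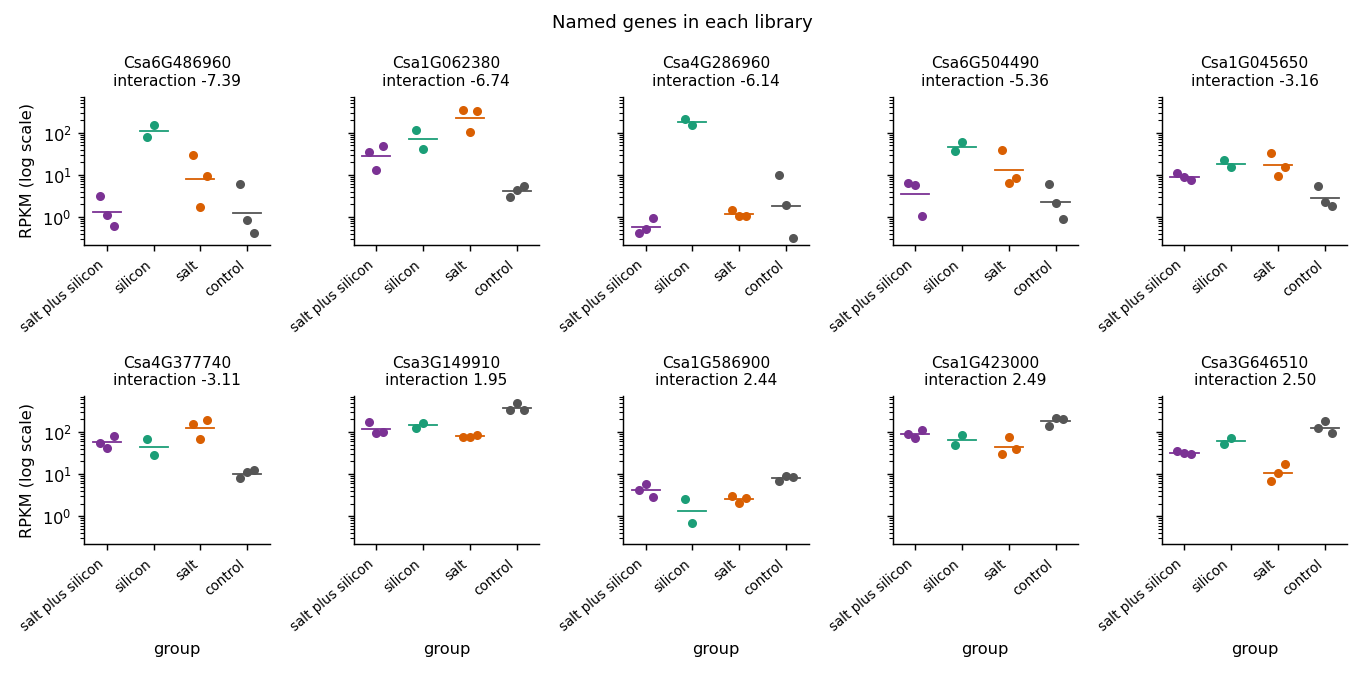
Points are RPKM values of single libraries on a log axis for the 10 genes named by rule, lines are geometric means of the groups, and panel titles give the interaction in log2 units. The panels run from Csa6G486960 at -7.39, where silicon is high, to Csa3G646510 at 2.50, where control is high and salt low.

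The remaining positive shapes held few genes. In Csa2G190740, Csa6G038510, Csa2G381810 and Csa7G380120 control and salt plus silicon formed the high pair, so that the level with both treatments lay nearer to control than with either alone. Csa2G190740 had 183, 141 and 193 RPKM in salt plus silicon, 101 and 103 in silicon, 53.0, 86.0 and 100.3 in salt, and 205, 211 and 210.1 in control libraries. Its salt plus silicon libraries lay below control and above both single treatments without overlap, and the interaction was 2.16 ± 0.34 (SE, limma adjusted p = 0.0191). Csa7G380120 was at 6.71, 0 and 14.5 RPKM in salt plus silicon and at 15.6, 27.3 and 11.8 RPKM in control libraries, and listed at 0 in silicon and salt libraries.

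Salt plus silicon stood apart as highest in Csa1G039230, Csa7G430820, Csa6G358140 and Csa1G050120. Csa1G039230 had 133, 117 and 87.7 RPKM in salt plus silicon, 41.0 and 50.8 in silicon, 49.9, 64.4 and 58.6 in salt, and 66.0, 78.7 and 64.3 in control libraries. Its interaction was 1.53 ± 0.28 (SE, limma adjusted p = 0.0317), with 1.26 ± 0.21 for salt plus silicon against silicon (adjusted p = 0.00601). Csa6G358140 and Csa1G050120 were above 0 in salt plus silicon libraries alone, at 14.5, 7.77 and 8.64 RPKM and at 37.9, 23.3 and 31.5 RPKM.

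Salt stood apart as lowest in Csa6G501930 and Csa2G002000. Csa6G501930 had 53.0, 43.9 and 43.3 RPKM in salt plus silicon, 47.5 and 41.9 in silicon, 32.3, 31.2 and 23.3 in salt, and 68.3, 68.3 and 64.2 in control libraries. It fell by 1.20 ± 0.16 with salt alone (limma adjusted p = 0.0046), and salt plus silicon minus silicon was 0.06 ± 0.18 (adjusted p = 0.886). Silicon stood apart as lowest in Csa5G615300, Csa4G296210 and Csa3G651690, and the silicon libraries of the last 2 were listed at 0. Csa3G651690 had 10.8, 51.6 and 31.2 RPKM in salt plus silicon, 38.8, 29.1 and 9.81 in salt, and 55.5, 20.9 and 57.4 in control libraries.

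The mean level over libraries had a median of 11.5 RPKM in the negative calls and 28.3 in the positive calls, beside 12.7 in all tested genes. Negative calls made up 1.62% of the 3219 genes under 3 RPKM, 2.03% of the 4983 from 10 to 30 RPKM and 0.798% of the 1504 at 100 RPKM or more. Positive calls made up 0.0311%, 0.181% and 0.399% of the same genes. The highest mean among the calls was 404 RPKM. On group means in RPKM without a log, the contrast had the same sign in all 339 called genes, while it had the opposite sign in 4.58% of all tested genes.

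Precision limits what the genes outside the calls show. The median SE of the interaction was 0.39, against 0.29 for the salt difference in silicon-fed leaves and 0.26 for that without silicon. In 4090 genes (23.5%) the 95% interval of the interaction lay within 2-fold in either direction, and in the others it reached past 2-fold. The number of calls leaned on single libraries. It was 8 without silicon 1 and 59 without silicon 2, where the lone silicon library is assumed to vary like the other groups. It was 60, 122 and 98 without salt plus silicon 1, 2 and 3, and 89, 479 and 144 without salt 1, 2 and 3. Without control 1 it was 1228, among them all 339 calls, and it was 75 without control 2 and 178 without control 3. Without silicon 1, 7 of the 8 calls were among the 339. Direction moved less: the sign was kept in all 339 genes in each of these fits, or in the 303 of them that passed the filter without a silicon library. The median contrast of the negative calls ran from -2.44 without silicon 1 or without control 3 to -2.95 without control 1. A choice made on the contrast with all libraries keeps much of that sign by itself. Without silicon 1, all 10 genes named by rule lost their calls. Over the 11 such fits, each of the 10 lost its call in 1 (Csa1G062380) to 9 times, with 4 for Csa4G286960 and 7 for Csa3G646510.

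**Figure D5:**
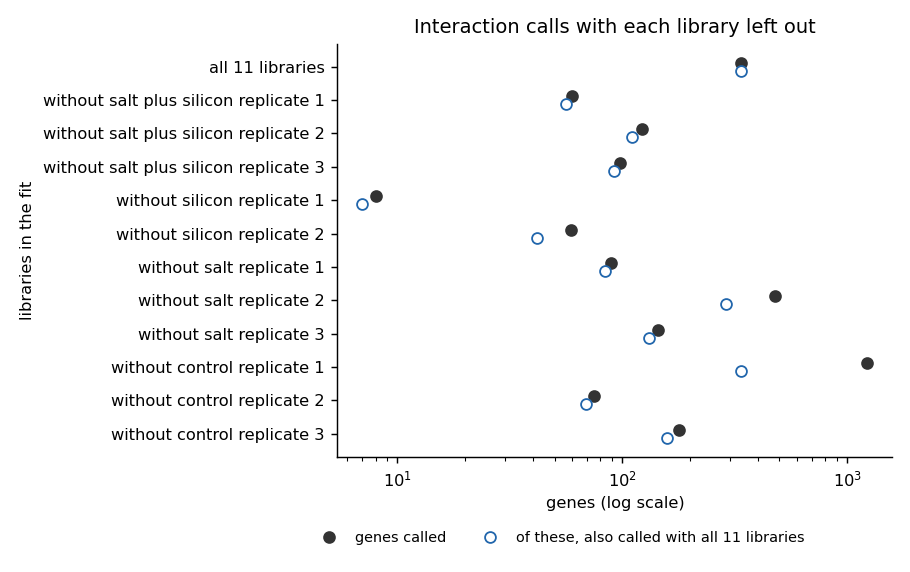
Filled points give the number of genes called for the interaction with each library left out, and open points how many of them were also called with all 11 libraries, on a log axis. The count lies at 8 without silicon 1 and at 1228 without control 1, beside 339 with all libraries.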

How the data were processed

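Per the labels' protocols, the libraries hold poly(A) RNA and no strand information, and overlapping genes on opposite strands share their reads. TopHat2 is named in the submitters' processing notes. The TopHat2 version, genome build, annotation and counting program were not given in the sources used here. RPKM values, 1 per gene and library, were deposited by the authors and used unchanged. Values were transformed to log2(RPKM + 1), and genes that reached 1 RPKM in 2 or more libraries were kept. The 4 group means were estimated by limma 3.58.1 (R 4.3.3), whose prior variance followed the mean level, without a replicate block (7 residual degrees of freedom). Two-sided p-values were adjusted by Benjamini-Hochberg over all 17408 genes, with a threshold of 0.05, and the fit was tested on simulated data. Fold changes on this scale understate changes of low genes. Shapes, counts and plots were made in Python 3.11.15 (numpy 2.4.6, pandas 2.3.3, matplotlib 3.10.9). IDs were compared with the 23999 genes of the RefSeq table. The rule named, among calls without a 0 in any library, the 2 highest and 2 lowest contrasts and, in each shape of 10 or more calls, the 2 largest of either sign. Contrast, groups and rule were chosen with earlier results of these data known. Alternatives were another pseudocount, 2 other filters, 2 scalings, a replicate block, other variance settings, library weights and leaving out each library.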

Additional observations from a re-analysis of the deposited data

Results flagged for a closer look

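The salt difference depended on silicon in 339 genes by the interaction term of limma, and each gene named above is among them. Among genes named by rule, the log2 interaction was -7.39 for Csa6G486960, -6.74 for Csa1G062380, -6.14 for Csa4G286960, -5.36 for Csa6G504490, -3.16 for Csa1G045650 and -3.11 for Csa4G377740. It was 2.50 for Csa3G646510, 2.49 for Csa1G423000, 2.44 for Csa1G586900 and 1.95 for Csa3G149910.

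Among genes named after their values were seen, it was -3.88 for Csa1G056920, -2.96 for Csa3G144110, -2.91 for Csa4G129570 and -1.84 for Csa5G517870, where salt and silicon were the high pair. It was 2.16 for Csa2G190740, 2.05 for Csa6G038510 and 1.61 for Csa2G381810, where control and salt plus silicon were high. It was 1.74 for Csa7G430820 and 1.53 for Csa1G039230 with salt plus silicon highest, 1.26 for Csa6G501930 and 1.26 for Csa2G002000 with salt lowest, and 1.05 for Csa5G615300 with silicon lowest. In runs of neighbouring IDs it was -3.36 for Csa1G065420, -3.64 for Csa1G065920, -4.14 for Csa1G065930, -1.65 for Csa4G129580 and -3.72 for Csa4G129600.

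For genes listed at 0 in a whole group the fitted size depends on the pseudocount, and the limma adjusted p alone is given. It was 0.0331 for Csa7G380120, 0.036 for Csa4G431930, 0.0238 for Csa4G296210 and 0.0238 for Csa3G651690. For genes listed at 0 in every library outside the group where they were high, it was 2.05e-05 for Csa6G116670, 0.00315 for Csa6G358140, 8.02e-05 for Csa1G050120 and 3.69e-05 for Csa1G065940. These latter genes entered the test only through that group, and libraries at 0 add no spread. Their small p-values are therefore descriptions and support nothing. The groups hold 2 or 3 libraries, too few to test whether a single library lies outside its group. The library quality weights given below are no such test.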

How the results depend on the processing

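Other filters, robust moderation, no trend and median-of-ratios scaling left the number of calls, in either direction, within 1.5 times the reported one. Leaving genes at 0 out of the count, chosen after seeing the data, only subtracts them, with no new fit. The sign of the contrast was kept in each of the 339 genes, or in those of them that passed the filter, under all fits. With the smaller pseudocount of 0.1 there were 158 calls, 16 positive and 142 negative, with silicon apart, as highest or lowest, in 68.4%. Quantile normalization gave 56 positive calls and silicon apart in 60.3%, against 73.7% as reported. Library quality weights gave 1014 calls, 146 positive and 868 negative, with silicon apart in 64.2%. The lowest weights were 0.41 for salt 2, 0.60 for control 1 and 0.67 for control 3, and the other libraries ran from 0.98 to 1.88. Silicon stood apart in 68.1% with a gap of 60% and in 78.5% with a gap of 40%. With 1 library left out, calls ran from 8 to 1228, positive ones from 1 to 104, negative ones from 7 to 1124, and silicon apart from 37.5% to 82.02%. Calls ran from 409 to 1931 for salt plus silicon against silicon, 452 to 1922 for salt against control, 3 to 12 for salt plus silicon against salt, and 80 to 2515 for silicon against control. With a replicate block there were 175 calls, 10 positive and 165 negative, with silicon apart in 81.1%, and 1031 calls for silicon against control. Nothing in the labels pairs the replicate numbers. The deviations of same-numbered libraries from their group means correlated between -0.20 and 0.16 over 15 pairs, 5 of them over 0.1. Deviations in such small groups are tied to each other, as they sum to 0 within a group. These correlations therefore cannot show whether same-numbered libraries were paired. Of the 10 genes named by rule, 4 lost the call under the block, 6 with the smaller pseudocount, 4 with median-of-ratios scaling and 3 with quantile normalization. Of all 35 named genes, 18 lost it under the block, among them Csa1G056920, Csa4G129570 and Csa7G380120. With the smaller pseudocount 14 lost it, with median-of-ratios scaling 8 and with quantile normalization 9. Most named genes also lost it without silicon 1. Csa6G116670 and Csa1G050120 kept it in all 11 fits with a library left out, and Csa1G065940 in the 9 where it passed the filter. These 3 genes were listed at 0 in every library outside 1 group, which adds no spread to the fit, so their kept calls support nothing. The cause of a lost or changed call was not tested under any setting. Without counts, depth limits could not be set.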

Other observations

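Some genes called for the interaction stood next to each other in ID order. Of the 339 called genes, 29 (8.55%) had a called gene as the next or the previous listed ID, and of the 17069 tested genes that were not called, 527 (3.09%). These pairs formed 13 runs, of which 11 held 2 genes, 1 held 3 and 1 held 4, and every run had 1 direction. The listed IDs were sorted as text for this order, and no position was looked up. The libraries do not keep strand, and whether neighbours share reads was not tested.

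The longest run was Csa1G065420, Csa1G065920, Csa1G065930 and Csa1G065940, picked after values were seen. Csa1G065420 had 1.20, 1.78 and 1.04 RPKM in salt plus silicon, 13.8 and 11.8 in silicon, 2.96, 0.605 and 3.03 in salt, and 1.35, 0.205 and 0.735 in control libraries. Csa1G065920 had 4.43, 8.14 and 4.61 RPKM in salt plus silicon, 61.1 and 53.4 in silicon, 9.60, 4.14 and 8.77 in salt, and 9.50, 5.12 and 2.03 in control libraries. Csa1G065930 had 3.98, 4.98 and 4.75 RPKM in salt plus silicon, 59.9 and 63.8 in silicon, 9.12, 3.51 and 10.3 in salt, and 7.26, 3.44 and 2.76 in control libraries. All 4 were high in both silicon libraries alone, and Csa1G065940 was at 44.9 and 32.6 RPKM there and listed at 0 in the other 9 libraries. In each of the other 3, salt 2 was the lowest salt library.

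The run of 3 was Csa4G129570, Csa4G129580 and Csa4G129600, in which the salt mean also lay above the control mean. Csa4G129600 had 8.95, 7.86 and 5.84 RPKM in salt plus silicon, 35.7 and 27.7 in silicon, 23.9, 5.25 and 18.2 in salt, and 5.45, 3.02 and 1.87 in control libraries. Csa4G129580 had 10.9, 12.3 and 9.67 RPKM in salt plus silicon, 14.0 and 13.9 in silicon, 28.0, 14.7 and 25.9 in salt, and 7.59, 8.84 and 8.24 in control libraries. Salt 2 again had the lowest of the salt values in both genes. Over all called negative genes the median level was 8.27 RPKM in salt 1, 5.39 in salt 2 and 6.25 in salt 3.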
